A study of Homo sapiens with 4 samples.

Results

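The values described here belong to 45 genes that act on the choice of splice sites. They are 12 serine/arginine-rich (SR) proteins, 3 SR-related proteins, 10 heterogeneous nuclear ribonucleoproteins (hnRNPs) and 20 factors that are tissue-restricted or paralogs of such factors. The genes were chosen by symbol, and each was matched through the annotation to its transcripts among 62218 genes with a row in the count tables. All 45 were found, and 44 passed the filter of at least 10 counts in at least 2 libraries. RBM24, a factor of muscle and heart, did not pass, with 4 and 8 counts in naïve hESCs and again 4 and 8 in primed hESCs.

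The cells were human embryonic stem cells (hESCs) of the established H1 line, wild type in every library. Primed H1 hESCs were kept in mTeSR on Matrigel in normal oxygen. Naïve hESCs had been derived from these primed cells and were kept in the FINE condition, in low oxygen, in a medium with Dasatinib, AZD5438, SB590885, PD0325901, Y-27632, LIF, Activin A and bFGF. Medium, inhibitors, oxygen and state therefore changed together and cannot be told apart. Each state had 2 Nanopore cDNA libraries, and the labels do not say whether the replicates were separate cultures, so that p-values measure the spread between these libraries, which may be technical. The comparison asks which splicing regulators differed between naïve and primed pluripotency.

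SR proteins carry RNA recognition motifs and a tail rich in arginine and serine, bind mostly exonic sequences and favour the use of nearby splice sites. hnRNPs coat nascent transcripts and often oppose exon use, although the effect of both families depends on where they bind. Tissue-restricted factors such as NOVA, RBFOX, MBNL, CELF, ESRP and SRRM4 act on smaller sets of exons, and pluripotent cells are known for high PTBP1 and low MBNL activity relative to differentiated tissues.

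Each value is a count of alignments over the whole span of a transcript, introns included, and not a count of molecules. The libraries held 153647482 and 161548901 counts in naïve hESCs and 129276054 and 132927036 in primed hESCs, and a count of 0 in a library allows up to 3. The gene value was the count of the transcript with the largest mean count. CPM values (counts scaled to a common library total) were scaled by edgeR's TMM factors, which were 0.779 and 0.824 for naïve and 1.25 and 1.24 for primed hESCs. The choice of scaling matters: over the 27632 genes tested the log2 fold change had a median of 0.08 with TMM and 0.72 with library size, a shift of 0.64. The sign of 15 members was below 0 by TMM and above 0 by library size: SRSF2, SRSF7, SRSF8, SRSF10, SRSF11, SON, HNRNPK, HNRNPM, HNRNPU, ESRP1, RBFOX2, PTBP1, CELF1, RBM47 and ELAVL1. The naïve and primed markers went with the labels: 8 of 8 naïve markers passed the test as lower and 8 of 8 primed markers as higher in primed hESCs. DNMT3L had under 10 counts in both primed libraries and passed the count filter only through naïve hESCs. ZIC2, DUSP6, THY1, SFRP2 and FZD7 had under 10 counts in both naïve libraries and passed it only through primed hESCs. KLF17, a naïve marker with a log2 fold change of -0.41, was called under TMM only, with 95.5 and 95.1 CPM in naïve and 70.8 and 73.0 CPM in primed hESCs, and was at 0.23 with library size. Markers of pluripotency in general were split. Of 8 tested, SOX2, LIN28A, DPPA4, SALL4 and TDGF1 were called higher in primed hESCs and NANOG (-1.62) and LIN28B (-1.94) lower. POU5F1 was not called by TMM (-0.05). SOX2 had 28.6 and 32.5 CPM in naïve and 140 and 177 CPM in primed hESCs.

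Markers of other cell types also moved with the state. Of 11 trophoblast markers tested, 9 were lower in primed hESCs, and the summed level of the 12 listed was 2109 and 2444 CPM in naïve against 9.11 and 9.76 CPM in primed hESCs, with VGLL1 at 0 counts in both primed libraries. Most of the naïve sum was CGA, at 1551 and 1866 CPM, and CGB5, at 405 and 401 CPM. Of 6 amnion markers, 5 were lower in primed hESCs, with summed levels of 25 to 26.7 CPM against 6.2 to 7.28 CPM. Of 6 neural markers tested, 5 were higher in primed hESCs, with summed levels of 19.0 to 27.1 CPM in naïve and 40.1 to 47.8 CPM in primed hESCs, while SOX1, which defines early neural cells, had 0 counts in 3 libraries and 1 count in the other. TUBB3, not called by TMM, made up most of each sum, with 24.8 and 16.4 CPM in naïve and 27.6 and 20.7 CPM in primed hESCs. Of 5 fibroblast markers tested, 4 were higher in primed hESCs, with summed levels of 3.73 to 4.43 CPM and 59.5 to 61.8 CPM. COL1A1 (32.2 and 38.3 CPM) and COL1A2 (24.0 and 19.8 CPM) made up most of the sum in primed hESCs. Endoderm and mesoderm markers summed to 5.59 to 7.06 CPM in naïve and 2.48 to 3.01 CPM in primed hESCs, with 2 of 5 tested lower. Of those called, CGA, GATA2, TFAP2A, KRT23, VGLL1, ISL1, VTCN1, HEY1 and HAND1 had under 10 counts in both primed libraries. PAX6, MAP2, DCX, STMN2 and POSTN had under 10 counts in both naïve libraries. Such markers passed the count filter only through the other state. In bulk libraries fewer cells of a type and less RNA per cell cannot be told apart, and the part of these cell types in the values below was not tested.

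Of the 44 members tested, 31 were called (edgeR's quasi-likelihood test, adjusted p below 0.05), with 15 higher and 16 lower in primed hESCs. Of all genes tested 70.0% were called, 37.4% higher and 32.6% lower, so that the members' share of 70.5% was near the background. By size the members' share was lower than the background: 10 members, or 22.7%, were called with a log2 fold change beyond 1, 4 of them higher and 6 lower, against 47.1% of all genes. Of the 4 higher, NOVA1, NOVA2 and SRRM4 had under 10 counts in both naïve libraries and passed the count filter only through primed hESCs, where they were high. The median log2 fold change was -0.03 over the 15 SR and SR-related genes, -0.06 over the 10 hnRNPs and -0.28 over the 19 tissue factors tested, beside 0.08 over all genes. The spread differed more than the medians did. SR and SR-related genes lay between -0.89 and 0.75 and hnRNPs between -1.14 and 0.60, whereas tissue factors reached from -3.82 to 5.90. With library size in place of TMM, 26 members (59.1%) were called higher and 6 (13.6%) lower, beside 56.2% and 16.3% of all genes. The 15 members called higher by TMM were also called higher by library size. Of the 16 called lower by TMM, 6 were also called lower by library size: HNRNPC, HNRNPF, ESRP2, PTBP3, MBNL2 and MBNL3. The other 10 called lower by TMM were not called by library size.

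**Figure D1:**
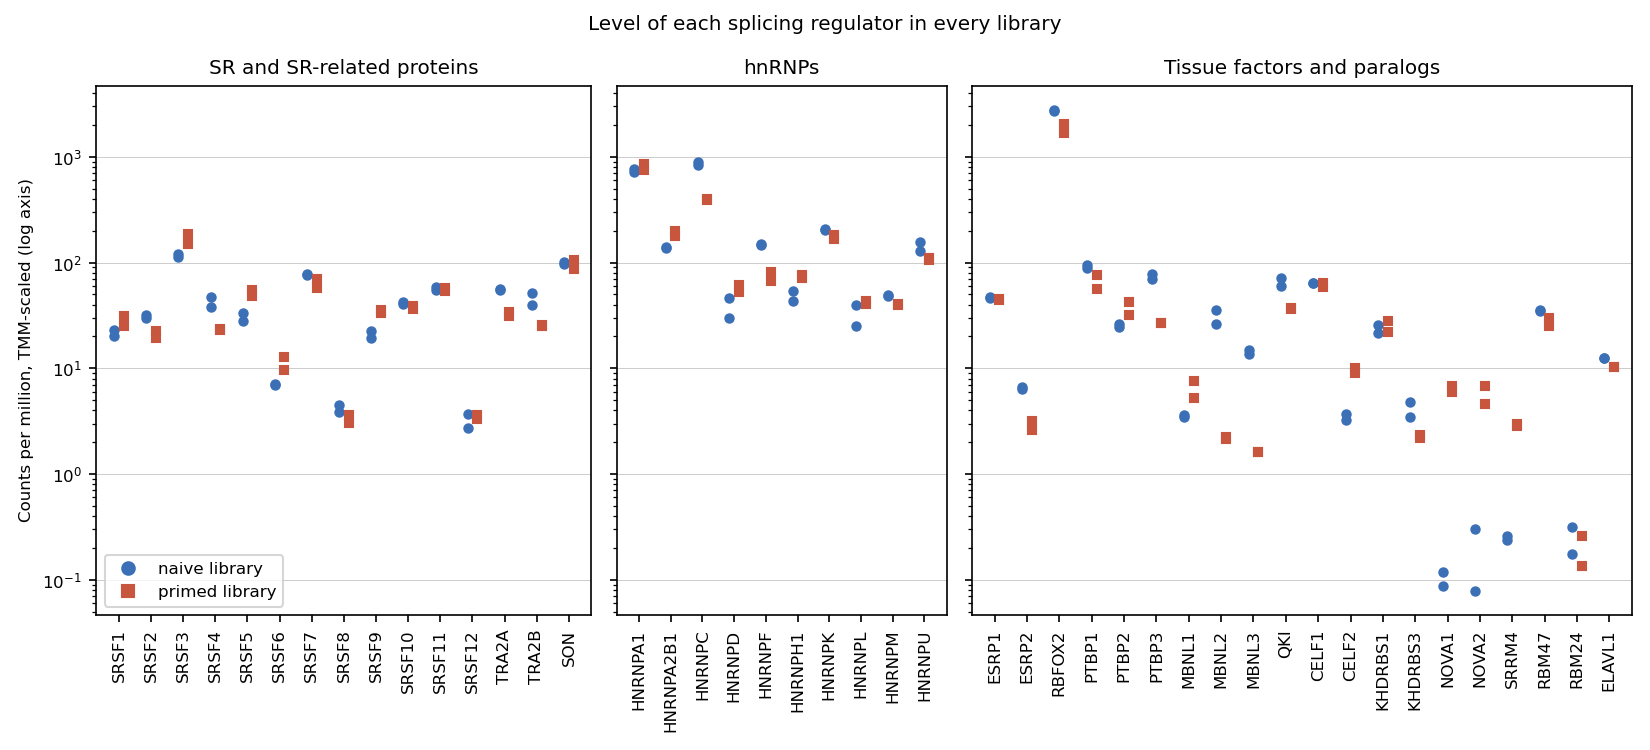
Level of each of the 45 splicing regulators in CPM (TMM-scaled, log axis), with 1 circle per naïve library and 1 square per primed library. The states are close together for most SR proteins and hnRNPs, whereas a wide gap separates them for NOVA1, NOVA2, SRRM4, MBNL2 and MBNL3.

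**Figure D2:**
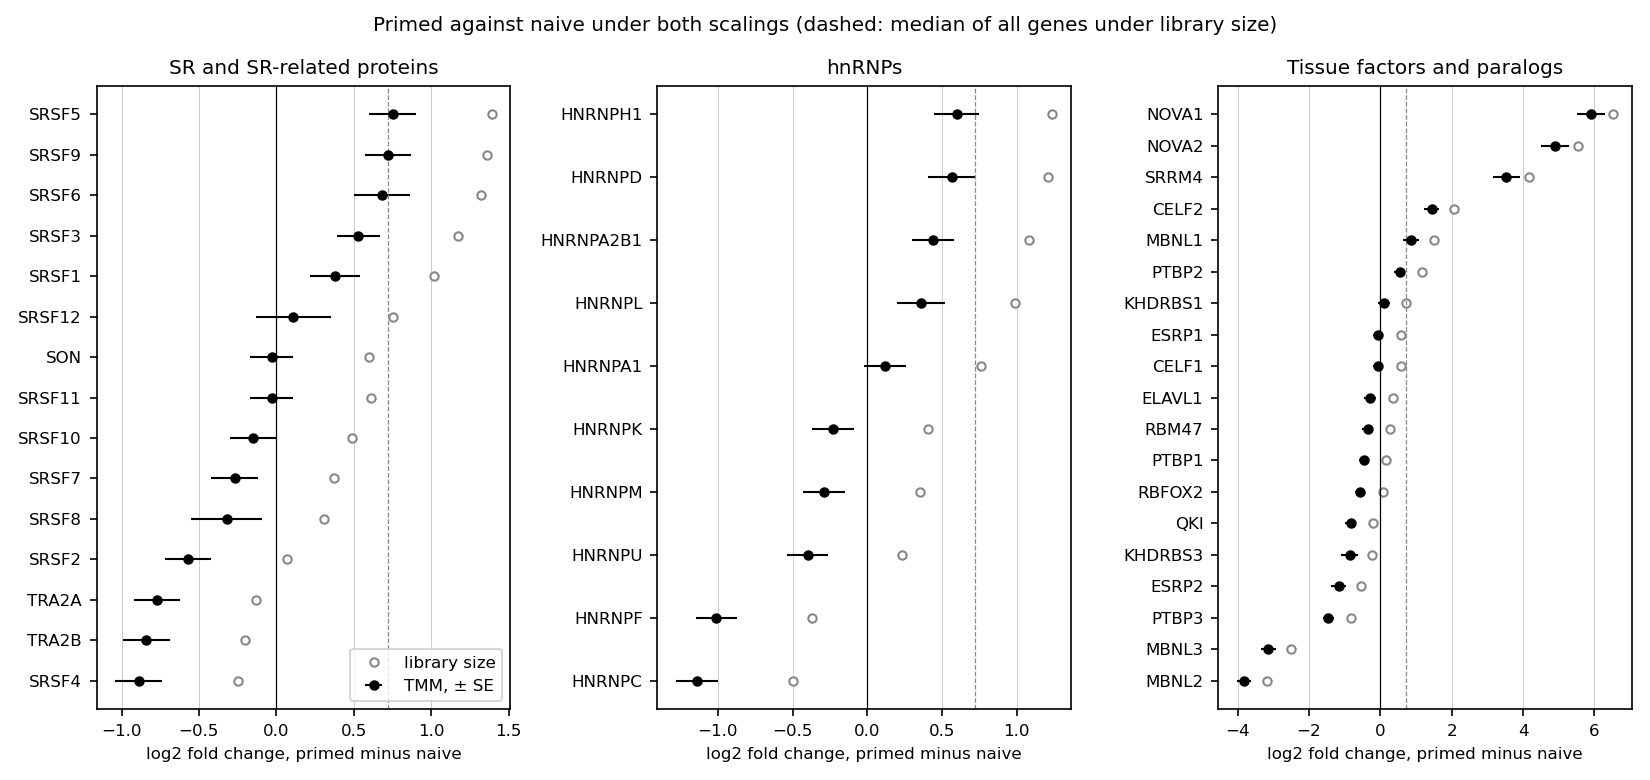
log2 fold change of primed minus naïve hESCs for the 44 members tested, with TMM (filled circles, bars show 1 SE) and with library size (open circles). The solid line marks 0 and the dashed line the median of all genes under library size, 0.72. Every open circle lies to the right of its filled circle.

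NOVA1, NOVA2 and SRRM4, 3 factors best known from neurons, were near the count limit in naïve hESCs and clearly present in primed hESCs. NOVA1 and NOVA2 are KH-domain proteins that steer neuronal alternative exons. NOVA1 (ENSG00000139910, chr14:26443090-26598033) had 2 and 3 counts in naïve and 177 and 210 in primed hESCs, the latter 6.02 and 6.86 CPM. NOVA2 (chr19:45933734-45973865) had 7 and 2 counts against 136 and 209, or 4.62 and 6.82 CPM in primed hESCs. SRRM4, an activator of the very short exons of neurons (chr12:118981541-119163051), had 6 counts in each naïve library and 87 in each primed library. For these 3 genes both primed libraries lay far above both naïve libraries. Over the pooled counts the ratio of primed to naïve was 62.6 for NOVA1 (95% exact binomial interval 26.6 to 194), 31.0 for NOVA2 (16.1 to 68.3) and 11.7 for SRRM4 (6.54 to 23.1), intervals that cover counting error only. No p is given for them, since they entered the test only through the state in which they were high. The levels remained low in primed hESCs, at 0.921, 0.705 and 0.344 CPM per exonic kb, which is below most members of the SR class. An lncRNA gene on the opposite strand inside SRRM4, ENSG00000257095, had 2 and 1 counts in naïve and 29 and 31 in primed hESCs, and counting ignored strand. Beside this, 5 of 6 neural and 4 of 5 fibroblast markers tested were also called higher, with SOX1 and DCN at or under 3 counts in every library. Of those called, PAX6, MAP2, DCX, STMN2 and POSTN also entered the test only through primed hESCs. The part of such cells in these values was not tested.

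The promoters of these 3 genes are shown beside those of MBNL2 and MBNL3, the members with the largest fall, since these 5 genes had the widest gaps between the states. Each line is the 250 bases before the annotated start, from RefSeq on GRCh38.p14, with CpG dinucleotides in capitals. Of the members, 36 had an entry in the table. The entry nearest to the start of the counted transcript was taken, which is at that start for 4 genes and 899 bases inside it for MBNL2.
NOVA1 (chr14:26598034-26598283, minus strand): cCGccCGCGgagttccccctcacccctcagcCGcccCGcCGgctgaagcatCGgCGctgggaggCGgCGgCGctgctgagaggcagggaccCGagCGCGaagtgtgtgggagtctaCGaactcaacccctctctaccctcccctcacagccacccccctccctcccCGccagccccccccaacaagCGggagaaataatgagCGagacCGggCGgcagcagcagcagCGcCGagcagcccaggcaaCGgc
NOVA2 (chr19:45973866-45974115, minus strand): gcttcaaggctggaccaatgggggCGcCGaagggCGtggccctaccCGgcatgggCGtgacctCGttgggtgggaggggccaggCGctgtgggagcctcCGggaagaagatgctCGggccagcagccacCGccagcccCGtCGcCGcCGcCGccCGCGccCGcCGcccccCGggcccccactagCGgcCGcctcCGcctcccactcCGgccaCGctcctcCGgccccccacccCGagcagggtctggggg
SRRM4 (chr12:118981291-118981540, plus strand): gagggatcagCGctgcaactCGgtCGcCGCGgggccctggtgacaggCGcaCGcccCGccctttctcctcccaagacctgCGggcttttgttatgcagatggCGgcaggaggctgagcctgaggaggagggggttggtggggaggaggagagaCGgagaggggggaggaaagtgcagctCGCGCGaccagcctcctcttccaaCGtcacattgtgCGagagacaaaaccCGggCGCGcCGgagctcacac
MBNL2 (chr13:97222083-97222332, plus strand): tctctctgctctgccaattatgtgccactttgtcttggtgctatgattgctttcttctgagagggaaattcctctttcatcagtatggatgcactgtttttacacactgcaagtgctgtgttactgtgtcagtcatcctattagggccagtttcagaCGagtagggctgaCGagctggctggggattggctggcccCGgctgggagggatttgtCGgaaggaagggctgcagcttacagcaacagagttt
MBNL3 (chrX:132489039-132489288, minus strand): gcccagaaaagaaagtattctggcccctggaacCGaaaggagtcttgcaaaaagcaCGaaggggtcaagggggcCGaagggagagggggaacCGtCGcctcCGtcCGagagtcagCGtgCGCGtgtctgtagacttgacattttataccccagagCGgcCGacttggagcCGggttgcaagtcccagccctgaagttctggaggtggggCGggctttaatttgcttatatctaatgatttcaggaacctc

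The windows of NOVA1, NOVA2 and SRRM4 hold 23, 27 and 20 CpGs and have a GC content of 71.6%, 78% and 66.4%. Those of MBNL2 and MBNL3 hold 4 and 14 CpGs, with a GC content of 50.0% and 55.6%. The median over 35093 promoter windows of the same length is 11 CpGs and 58.0% GC, and over 70 entries of the members it is 20 CpGs and 60.8% GC. Searched on both strands, the octamer ATGCAAAT is in none of the 5 windows and in 1.63% of all windows. GCCNNNGGC, the core of the TFAP2 motif, is likewise in none of the 5, against 19.8% of all windows. TATAAA is in the MBNL3 window and in 10.7% of all windows. These are descriptions of the letters in these windows, and methylation and binding were not measured.

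CELF2, a CUG-binding factor of brain, heart and T cells, was also higher in primed hESCs. Its levels were 3.25 and 3.73 CPM in naïve against 8.98 and 10 CPM in primed hESCs, with no overlap between the states. Its log2 fold change was 1.44 ± 0.20 (SE, edgeR adjusted p = 2.7e-08). CELF1, its broadly expressed paralog, had 63.6 and 64.8 CPM against 59.2 and 63.6 CPM, a log2 fold change of -0.06 that did not pass the test under TMM and was 0.57 with library size. Within a library, and so free of scaling, CELF2 counted 2.94 and 3.30 per 100 of CELF1 per exonic kb in naïve hESCs and 8.71 and 9.05 in primed hESCs. These ratios depend on the exonic lengths used, 7.98 kb for CELF2 and 4.58 kb for CELF1.

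The MBNL family changed its make-up between the states. MBNL proteins are zinc-finger factors that favour the exon choices of differentiated cells, and their sequestration by CUG repeats underlies myotonic dystrophy. MBNL2 (ENSG00000139793, chr13:97221434-97394120) had 26.3 and 35.8 CPM in naïve hESCs and 2.14 and 2.25 CPM in primed hESCs, from 605 and 912 against 63 and 69 counts. MBNL3 (chrX:132369320-132489038) had 13.7 and 14.8 CPM against 1.63 and 1.60 CPM. Both fell in primed hESCs without overlap, MBNL2 by 3.82 ± 0.20 and MBNL3 by 3.14 ± 0.21 on the log2 scale (SE, edgeR adjusted p = 3e-21 and 2.3e-17). MBNL1 (chr3:152268040-152465779) went the other way, from 3.60 and 3.45 CPM to 5.27 and 7.64 CPM, a log2 fold change of 0.87 ± 0.22 (SE, edgeR adjusted p = 0.00047). Every isoform span of MBNL2 with a mean count of at least 50 gave a log2 ratio between -3.89 and -3.82. Those of MBNL3 lay between -4.04 and -3.14 and those of MBNL1 between 0.21 and 1.18. The spans of a gene overlap and share alignments. The lncRNA RAP2C-AS1 overlaps MBNL3 on the opposite strand, with 382 and 478 counts in naïve and 140 and 137 in primed hESCs, and its alignments cannot be told apart from those of MBNL3 in the shared stretch. The trophoblast and amnion markers were lower in primed hESCs together with MBNL2 and MBNL3, and their part in the fall was not tested.

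Per exonic kb, MBNL2 made up 77.7% and 82.1% of the 3 MBNL genes in naïve hESCs and 33.4% and 27.6% in primed hESCs. MBNL1 made up 7.45% and 5.53% in naïve hESCs and 57.4% and 65.3% in primed hESCs, so that the most abundant paralog differed between the states in each library. MBNL3 held 14.8% and 12.4%, then 9.27% and 7.14%. These shares rest on no scaling between libraries. They do depend on the exonic lengths of the counted transcripts, 6.42 kb for MBNL1, 4.49 kb for MBNL2 and 12.3 kb for MBNL3. Without that division, naïve hESCs had 83 and 88 counts of MBNL1, 605 and 912 of MBNL2 and 316 and 377 of MBNL3. Primed hESCs had 155 and 234, 63 and 69, and 48 and 49. The most abundant paralog of each library was the same by counts, but the shares of MBNL2 and MBNL3 were not. With 2 libraries a state an exact permutation test cannot give a p below 0.333, so none is given for shares or ratios.

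**Figure D3:**
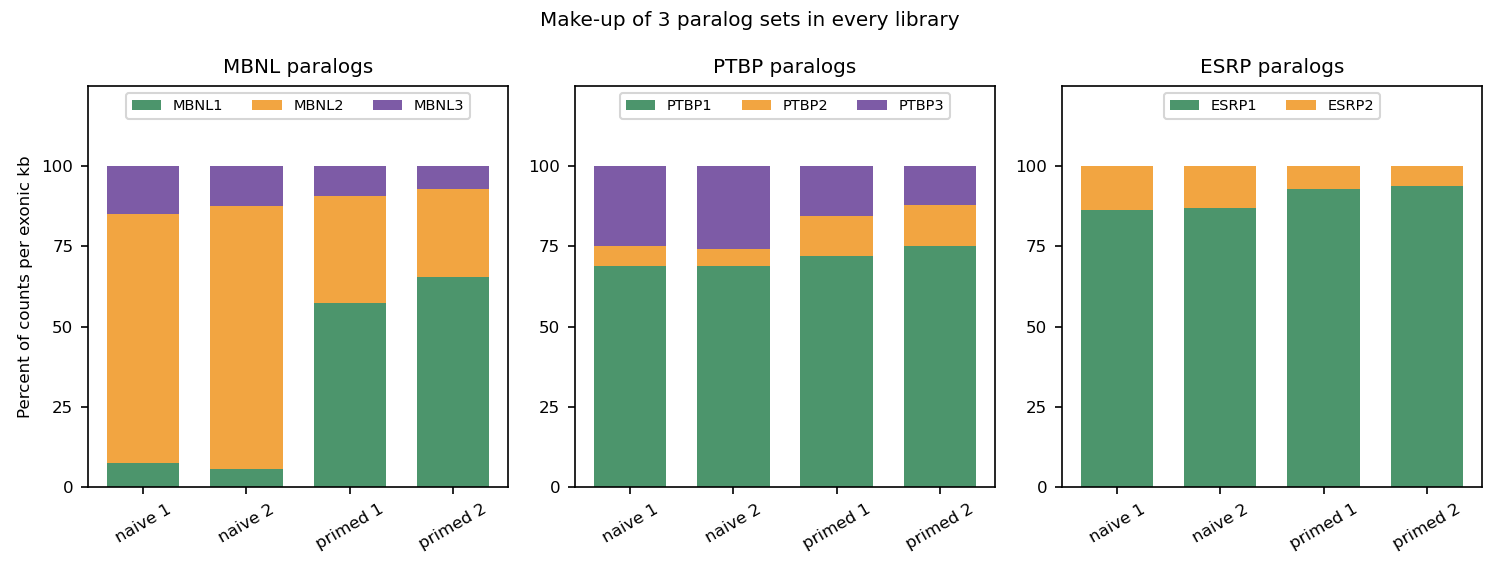
Share of each paralog in the counts per exonic kb of its set, in percent, for each of the 4 libraries (stacked bars, each adding to 100). The exonic length is that of the counted transcript, and the shares depend on it. MBNL2 is the largest part in both naïve libraries (77.7% and 82.1%) and MBNL1 in both primed libraries (57.4% and 65.3%), PTBP3 is a smaller part in primed hESCs, and ESRP1 makes up most of the ESRP pair throughout.

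The PTBP paralogs, polypyrimidine tract binding proteins, moved apart as well. PTBP1 represses neural exons in most non-neural cells, PTBP2 takes its place in developing neurons, and PTBP3 is best known from blood cells. PTBP3 (chr9:112217716-112333664) had 69.3 and 77.7 CPM in naïve and 26.7 and 26.9 CPM in primed hESCs, a fall without overlap of 1.46 ± 0.15 on the log2 scale (SE, edgeR adjusted p = 1.3e-11). PTBP2 (chr1:96721783-96823738) had 26.5 and 24.7 CPM against 31.9 and 42.6 CPM, a log2 fold change of 0.54 ± 0.16 (SE, edgeR adjusted p = 0.0021). Both kept their direction and call with library size, at -0.82 and 1.18.

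PTBP1 (chr19:797075-812327) had 89.0 and 95.8 CPM in naïve and 56.9 and 77.0 CPM in primed hESCs. It was called lower by TMM at -0.46 ± 0.15 (SE, edgeR adjusted p = 0.0059), but the value was 0.17 and not called with library size, and -0.10 and not called without primed replicate 1. Relative to PTBP1 per exonic kb, PTBP2 counted 9.16 and 7.91 per 100 in naïve and 17.2 and 17.0 per 100 in primed hESCs, a rise of 2.0 times. PTBP3 counted 36.0 and 37.5 per 100 against 21.6 and 16.2 per 100. These ratios depend on the exonic lengths, 3.69 kb for PTBP1, 12.01 kb for PTBP2 and 7.99 kb for PTBP3. Their fold change between the states does not. By counts alone, PTBP2 had 611 and 629 in naïve hESCs, beside 2050 and 2442 of PTBP1. In primed hESCs it had 939 and 1304, beside 1674 and 2359 of PTBP1. Most alignments of PTBP1 lay outside PTBP1-210, the isoform over chr19:797428-811289. It took 414 and 502 counts in naïve and 328 and 315 in primed hESCs, which left 79.4% to 86.6% of the counts of each library outside it. The log2 ratio of primed to naïve was -0.81 over PTBP1-210 and -0.39 over the counts outside it. The gene value and the ratios to PTBP1 thus rest mostly on the counts outside. This split was not set in advance.

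ESRP1 and ESRP2, the epithelial splicing regulators, also differed from each other. ESRP1 had 45.9 and 46.9 CPM in naïve and 45 and 44.4 CPM in primed hESCs, a log2 fold change of -0.05 ± 0.14 (SE) that did not pass the test. With library size it was 0.58 and called. ESRP2 (chr16:68229033-68236127) had 6.60 and 6.36 CPM against 3.16 and 2.61 CPM and fell by 1.17 ± 0.22 on the log2 scale (SE, edgeR adjusted p = 7.5e-06), and by 0.53 with library size. ESRP2 made up 13.6% and 12.9% of the pair per exonic kb in naïve and 7.15% and 6.06% in primed hESCs. NFATC3, which overlaps ESRP2 on the opposite strand, had 433 and 476 counts in naïve and 507 and 580 in primed hESCs. The lncRNA gene ENSG00000262160 overlaps ESRP2 on the same strand, with 122 and 163 counts in naïve and 171 and 137 in primed hESCs.

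QKI, KHDRBS3 and RBM47 were called lower by TMM and not by library size. QKI, a STAR-family protein known from glia and from circular RNA formation, had 59.8 and 71.9 CPM in naïve against 36.8 and 37.4 CPM in primed hESCs (log2 fold change -0.83, and -0.19 with library size). KHDRBS3 (SLM2) had 3.43 and 4.79 CPM against 2.18 and 2.35 CPM (-0.86, and -0.23 with library size). RBM47, known from endoderm and epithelia, had 35.1 and 35.4 CPM against 24.9 and 30.2 CPM (-0.35, and 0.28 with library size). KHDRBS1 (Sam68), at 21.6 and 25.5 CPM against 22 and 28.3 CPM, overlapped between the states. ELAVL1 (HuR), the ubiquitous member of a family whose other members are mostly neuronal, had 12.6 and 12.5 CPM against 10.4 CPM in each primed library. Neither gene passed the test under TMM, and ELAVL1 also did not pass with library size, where it was at 0.36, whereas KHDRBS1 was called higher there at 0.73.

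RBFOX2, an RNA-binding protein with a large role in epithelial, muscle and stem cells, stood apart from the other members because nearly all of its counts fell in a single stretch. It and SON are described span by span for a pattern chosen after their values were seen. Its counted transcript, RBFOX2-209 (chr22:35738736-36028824), had 63985 and 69563 counts in naïve and 49073 and 63143 in primed hESCs. That is 381 CPM per exonic kb in naïve hESCs, above every other member. RBFOX2-203, an isoform over chr22:35743958-35810004 with 12 exons, had only 280 and 388 counts against 695 and 661. RBFOX2-212, which ends at 35824373, had 247 and 314 against 591 and 574, whereas RBFOX2-207, which ends at 35840218, already held nearly all of the counts of the gene. Between 98.8% and 99.6% of the counts of RBFOX2-209 were thus outside RBFOX2-212, and the added counts begin with isoforms that reach into chr22:35824374-35840218.

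This stretch holds a sequence alike to RPL41, a gene for a very short ribosomal protein. At chr22:35838275-35838697, 423 aligned positions were 99.5% identical to the 469 bases of RPL41-202. RPL41 itself had 62124 and 67490 counts in naïve and 46670 and 60322 in primed hESCs, close to the values of RBFOX2-209. The coding sequence of RPL41 without its stop codon, 75 bases over 3 exons, and the aligned stretch of the copy are printed because no base differs between them.
RPL41 (chr12, coding exons between 56116788 and 56117521, plus strand): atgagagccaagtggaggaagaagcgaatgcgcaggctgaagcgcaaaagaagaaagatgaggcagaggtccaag
copy inside RBFOX2 (chr22:35838583-35838657, minus strand): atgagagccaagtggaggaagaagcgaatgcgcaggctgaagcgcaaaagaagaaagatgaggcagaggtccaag

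Reads with several alignments were counted at all of them. The counts are given per span and not per base, so where within the stretch the alignments lay could not be resolved further. The direction of RBFOX2 depended on the span. The log2 fold change was -0.56 ± 0.14 (SE, edgeR adjusted p = 0.00072) for RBFOX2-209, and it was not called with library size (0.08) or without primed replicate 1 (-0.25). With RBFOX2-203 as the value of the gene, an alternative chosen after the data were seen, it was 0.72 (edgeR adjusted p = 0.00012). The same fit also took SON over the span of a shorter isoform, described below. In it 32 members were called in place of 31, with RBFOX2 called in both fits and SON only in this fit. All 4 RBFOX2 isoforms that end before the stretch were higher in primed hESCs, with log2 ratios from 0.72 to 1.03.

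Among the 12 SR proteins, 5 (41.7%) were called higher in primed hESCs and 2 (16.7%) lower, and the others were not called. Of all genes 37.4% were called higher and 32.6% lower. By library size 9 of the 12 were called higher and 0 lower, beside 56.2% and 16.3% of all genes. SR proteins act in constitutive and regulated splicing and several also serve in export of mRNA. SRSF5 (chr14:69726900-69772004) had 27.9 and 33.2 CPM in naïve and 54.7 and 48.1 CPM in primed hESCs, a log2 fold change of 0.75 ± 0.15 (SE, edgeR adjusted p = 2.6e-05). SRSF9 had 19.4 and 22.3 CPM against 33.1 and 35.6 CPM, a log2 fold change of 0.72 ± 0.15 (SE, edgeR adjusted p = 5.7e-05). Both primed libraries were above both naïve libraries for these genes. SRSF6, SRSF3 and SRSF1 were called higher as well, with log2 fold changes of 0.68, 0.53 and 0.38. These 5 were called higher under both scalings. GATC overlaps SRSF9 on the opposite strand and had 670 and 752 counts in naïve and 1156 and 1235 in primed hESCs, and SRSF1 and SRSF6 are each overlapped by a further protein-coding gene on the same strand.

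SRSF4 (chr1:29147743-29181900), a large SR protein with a long arginine-serine tail, had 38.4 and 47.3 CPM in naïve and 23.1 and 23.3 CPM in primed hESCs. It was called lower at -0.89 ± 0.15 (SE, edgeR adjusted p = 2e-06), and with library size it was -0.25 and not called. TRA2B and TRA2A, the paralogous activators of many short exons, were called lower by TMM together. TRA2B had 40.0 and 51.5 CPM against 25.3 and 25.9 CPM (-0.84 ± 0.15), and TRA2A had 56.8 and 55.0 CPM against 31.3 and 34.1 CPM (-0.77 ± 0.15, SE). With library size they were -0.20 and -0.13 and not called. SRSF2, whose mutations are known from myeloid neoplasms, was at -0.57 with TMM and 0.07 with library size. MFSD11 overlaps SRSF2 on the opposite strand, with 657 and 808 counts in naïve and 789 and 665 in primed hESCs. So does ENSG00000267168, with 912 and 1094 counts in naïve and 1167 and 985 in primed hESCs.

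SRSF11 had the smallest difference of the class, with 55.4 and 58.3 CPM in naïve and 57.2 and 54.1 CPM in primed hESCs and a log2 fold change of -0.03 ± 0.14 (SE), and it was 0.61 with library size. SRSF7, SRSF8, SRSF10 and SRSF12 were not called by TMM, at -0.27, -0.32, -0.15 and 0.11. With library size SRSF7 (0.37), SRSF10 (0.49) and SRSF12 (0.75) were called higher, and SRSF8 (0.31) was not called. Per exonic kb, SRSF7 was the highest of the SR class in naïve hESCs at 32.8 CPM and SRSF3 in primed hESCs at 40.0 CPM. Without division by exonic length, SRSF3 was the highest in both states, with means of 117 CPM in naïve and 169 CPM in primed hESCs. SRSF8 and SRSF12 were the lowest in both states, between 0.775 and 0.968 CPM per exonic kb.

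SON, a large nuclear speckle protein, was near 0 as counted, with 97.0 and 102 CPM in naïve and 87.8 and 107 CPM in primed hESCs. Its first exon overlaps the GART gene on the opposite strand. SON-207, which covers chr21:33552248-33577481 and leaves out the 5′ end, had 331 and 467 counts in naïve against 672 and 623 in primed hESCs, and 74.0% to 85.2% of the counts of the gene lay outside it. GART-208, which reaches into SON, had 1734 and 2065 counts in naïve and 1889 and 2531 in primed hESCs outside GART-207, an isoform nested in it that ends before SON begins. Over SON-207, an alternative chosen after the data were seen, the log2 fold change was 0.40 (edgeR adjusted p = 0.025).

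Among the 10 hnRNPs, 4 (40%) were called higher in primed hESCs and 3 (30%) lower. Of all genes 37.4% were called higher and 32.6% lower, so that both shares were near the background. By library size 7 of the 10 were called higher and 2 lower, beside 56.2% and 16.3% of all genes. HNRNPC, which binds uridine tracts and shields the transcriptome from exons born of Alu elements, had the largest change of the class. HNRNPC (ENSG00000092199, chr14:21209136-21269494) had 898 and 839 CPM in naïve and 390 and 397 CPM in primed hESCs, a fall without overlap of 1.14 ± 0.14 on the log2 scale (SE, edgeR adjusted p = 1.7e-09). Its 32 isoform spans with a mean count of at least 50, which overlap and share alignments, ranged from -1.31 to -1.13. HNRNPF, a binder of guanine runs, had 151 and 148 CPM against 81.0 and 67.3 CPM and fell by 1.01 ± 0.14 (SE, edgeR adjusted p = 6.4e-08). HNRNPH1, its close relative, moved the other way, from 43.1 and 53.5 CPM to 75.6 and 71.0 CPM, with a log2 fold change of 0.60 ± 0.15 (SE, edgeR adjusted p = 0.00042). HNRNPC and HNRNPF kept their call with library size, at -0.50 and -0.37, and HNRNPH1 was at 1.24.

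HNRNPD (AUF1), which also acts in mRNA decay, had 30.2 and 46.4 CPM in naïve and 61.8 and 52.5 CPM in primed hESCs (0.57 ± 0.16, SE, edgeR adjusted p = 0.0017). HNRNPA2B1 had 139 and 140 CPM against 201 and 178 CPM (0.44 ± 0.14, SE, edgeR adjusted p = 0.005). CBX3, which overlaps HNRNPA2B1 on the opposite strand, had 2240 and 2693 counts in naïve and 2296 and 2195 in primed hESCs. HNRNPL, a binder of CA repeats, was called higher at 0.36 and HNRNPU, a scaffold of chromatin, lower at -0.40, while HNRNPK (-0.23) and HNRNPM (-0.29) were not called by TMM. With library size HNRNPU turned to 0.23 and was not called, and HNRNPK (0.41) and HNRNPM (0.35) were called higher. The naïve replicates of HNRNPD and HNRNPL lay wide apart, and without naïve replicate 1 the calls of HNRNPD (0.24), HNRNPH1 (0.39) and HNRNPA2B1 (0.38) were lost. HNRNPA1, a shuttling repressor of exons, had the smallest change, with 762 and 718 CPM against 860 and 750 CPM (0.12 ± 0.14, SE), and 0.76 with library size. Per exonic kb, HNRNPC was above HNRNPA1 in naïve hESCs (263 against 198 CPM) and below it in primed hESCs (119 against 215 CPM).

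The hnRNP genes have many processed copies in the genome, and these took counts as well. Of the members, 15 have a pseudogene named after them, 110 in all, and for 4 of them such a copy had more than 50% of the mean count of the gene. HNRNPA1P7 on chromosome 18 had 17135 and 17816 counts in naïve and 24744 and 22380 in primed hESCs, 97.6% of the mean of HNRNPA1, and differs from its coding sequence at 4 of 752 aligned bases. HNRNPCP2 had 18504 and 19130 against 9414 and 9410 counts, 86.0% of the mean of HNRNPC. Over 801 aligned positions it is 98.5% identical to the coding sequence of HNRNPC-201. The first 90 bases of that sequence are printed with those of the copy, with the base that differs in capitals (C36T, counted from 1 at the first coding base of HNRNPC).
HNRNPC (chr14:21234104-21234193, minus strand): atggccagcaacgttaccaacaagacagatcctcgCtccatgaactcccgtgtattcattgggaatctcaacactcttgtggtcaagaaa
HNRNPCP2 (chr2:189923336-189923425, plus strand): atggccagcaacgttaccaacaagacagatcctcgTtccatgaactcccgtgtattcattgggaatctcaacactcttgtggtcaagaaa

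HNRNPKP4 and HNRNPLP2 held 80.5% and 71.0% of the mean counts of HNRNPK and HNRNPL. A read that aligned to a gene and to its copy was counted at both, and the share of each locus could not be separated. HNRNPA1 also shares its alignments with ENSG00000258344, a lncRNA gene on the same strand, and HNRNPL with ENSG00000268083, a protein-coding gene on the same strand with 2442 and 2664 counts in naïve and 2611 and 2400 in primed hESCs. HNRNPK-AS1 overlaps HNRNPK on the opposite strand, with 3576 and 3890 counts in naïve and 3976 and 3406 in primed hESCs.

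The fold changes were then also read over every annotated isoform span of the members. Spans of a gene overlap and often count the same alignments, so agreement between them is no independent check on the single span used above. Of 43 members with at least 2 spans of a mean count of 50 or more, 34 had all spans on the same side of 0. Among the called members this was 28 of 30, and the exceptions were RBFOX2 and HNRNPU. HNRNPU-230 (chr1:244843768-244848889) was at 0.97 against -0.40 for the whole gene, whose span overlaps COX20. The widest range was that of HNRNPA1, from -1.17 over HNRNPA1-271, at the 3′ end, to 1.11 over HNRNPA1-239, a pair of short exons of chr12:54283079-54283234. HNRNPM was at -0.29 as counted, but HNRNPM-216, at the 3′ end (chr19:8487302-8489110), had 239 and 242 counts in naïve and 479 and 466 in primed hESCs, a log2 ratio of 0.67. PTBP2-206 was at 1.83 against 0.54 for the gene. The spans of MBNL2, HNRNPF and HNRNPA2B1 ranged over 0.07, 0.03 and 0.03 on the log2 scale. The single spans named here were not set in advance.

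**Figure D4:**
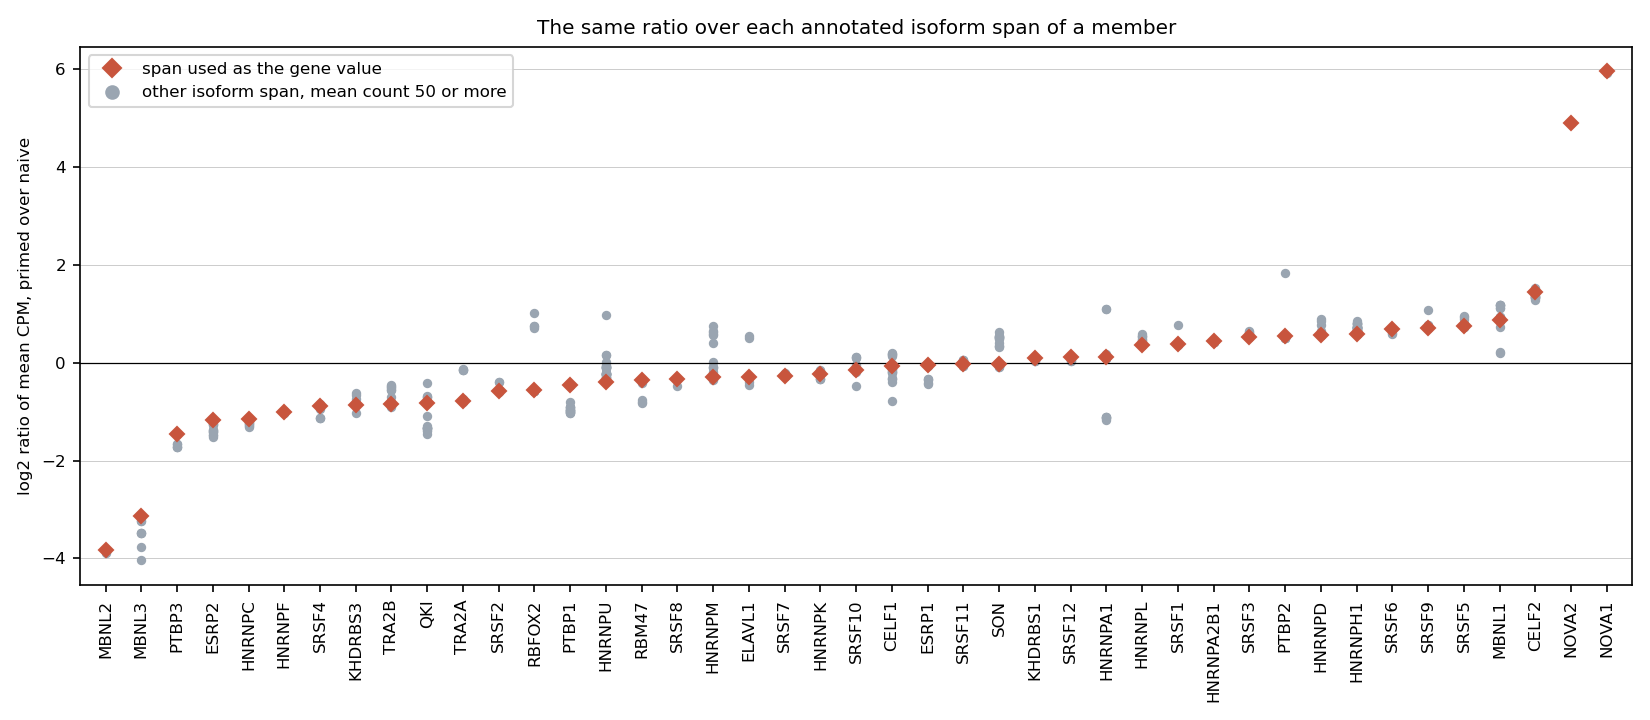
log2 ratio of mean CPM (primed over naïve, TMM-scaled) over each annotated isoform span of the members with a mean count of 50 or more; diamonds mark the span used as the gene value. RBFOX2, SON, HNRNPM and HNRNPA1 have spans on both sides of 0, whereas all spans of MBNL2, MBNL3, PTBP3, HNRNPC, NOVA1 and CELF2 lie on the same side. Spans of a gene overlap and share alignments.

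Isoform usage of the members was approximated from the counts over the span of each isoform, set against those of the other isoforms of its gene. An alignment was counted for every isoform span that it overlapped. The isoform fractions below are therefore shares of span counts per exonic base and do not measure the usage of single isoforms. Of 718 isoforms of 44 members, 1 passed both an adjusted p under 0.05 and a change in isoform fraction (dIF) beyond 0.1, a share of 0.139% beside 0.556% of all isoforms. This was ELAVL1-204 (chr19:7960917-7981112, 3 exons), with 109 and 141 counts in naïve and 215 and 221 in primed hESCs. Its isoform fraction was 18.1% and 21.1% in naïve and 30.1% and 29.4% in primed hESCs, a dIF of 0.102 (adjusted p = 0.027, edgeR's diffSpliceDGE). The call was lost when any 1 of the 4 libraries was left out and when fractions were taken without length. By adjusted p alone 20 isoforms of 6 members passed, a share of 2.79% beside 4.27% of all isoforms. They belong to HNRNPA1, HNRNPM, RBFOX2, CELF1, HNRNPU and ELAVL1. Of these, CELF1-206 fell from 7.89% in each naïve library to 5.04% and 4.54%, and HNRNPM-212 rose from 5.19% and 4.58% to 8.34% and 8.20%. Both shares of the members were below the background.

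The other genes of the pathway were taken by list. Of 17 further tissue factors tested, 11 were called higher in primed hESCs, all 11 beyond 1, and the other 6 were not called. Their median log2 fold change was 1.77, and 37.4% of all genes were called higher. The share called beyond 1 was 64.7%, beside 47.1% of all genes in either direction. With library size 15 (88.2%) were called higher, beside 56.2% of all genes. TIA1, not called by TMM, is also in the list of further hnRNPs below. Of the 17, 3 had under 10 counts in both naïve libraries, KHDRBS2 among them, and passed the filter only through primed hESCs. KHDRBS2 (SLM1), a neuronal relative of KHDRBS1, had 8 and 5 counts in naïve and 368 and 528 in primed hESCs (5.77). ELAVL2, a neuronal relative of ELAVL1, had 13 and 11 against 278 and 399 counts (4.49). The neuronal paralogs RBFOX1 and RBFOX3 were called higher at 2.52 and 3.22, as was SRRM3, the paralog of SRRM4, at 1.77. These moved the same way as NOVA1, NOVA2 and SRRM4, and 5 of the 6 neural markers tested did so too. Of these markers, PAX6, MAP2, DCX and STMN2 had under 10 counts in both naïve libraries and passed the filter only through primed hESCs.

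Of 8 SR kinases tested, which phosphorylate the arginine-serine tails, 6 were called lower in primed hESCs and the other 2 were not called, with a median of -1.02, beside 32.6% of all genes called lower. CLK1 had 451 and 603 counts in naïve and 122 and 142 in primed hESCs (-2.30 ± 0.18, SE, edgeR adjusted p = 3.3e-15), and CLK4 had 289 and 358 against 107 and 137 counts (-1.71). With library size 4 of the 8 were called lower and 2 higher, beside 16.3% and 56.2% of all genes.

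Of 34 core spliceosome genes, 21 were called lower by TMM and 1 higher, with a median of -0.40, but with library size 3 were called lower and 14 higher. The shares were 61.8% lower and 2.94% higher by TMM, beside 32.6% and 37.4% of all genes, and 8.82% lower and 41.2% higher by library size, beside 16.3% and 56.2%. SNRPC, of the U1 particle, was lower under both scalings (-1.34 and -0.69), as was PRPF3 (-1.10 and -0.46). SNRPN, an imprinted Sm protein gene, was higher under both (0.53 and 1.17). Of 20 further hnRNPs, 7 were called lower and 2 higher by TMM, and 1 lower and 12 higher by library size. The shares lower were 35.0% by TMM and 5.0% by library size, and those higher 10% and 60.0%, beside 32.6% and 16.3% of all genes lower and 37.4% and 56.2% higher. PCBP1 (-1.13) and RALY (-0.91) had the largest falls, of which that of RALY was not called with library size (-0.28). HNRNPH3 (0.74) and RBMX (0.43) were the 2 called higher by TMM, both also with library size.

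**Figure D5:**
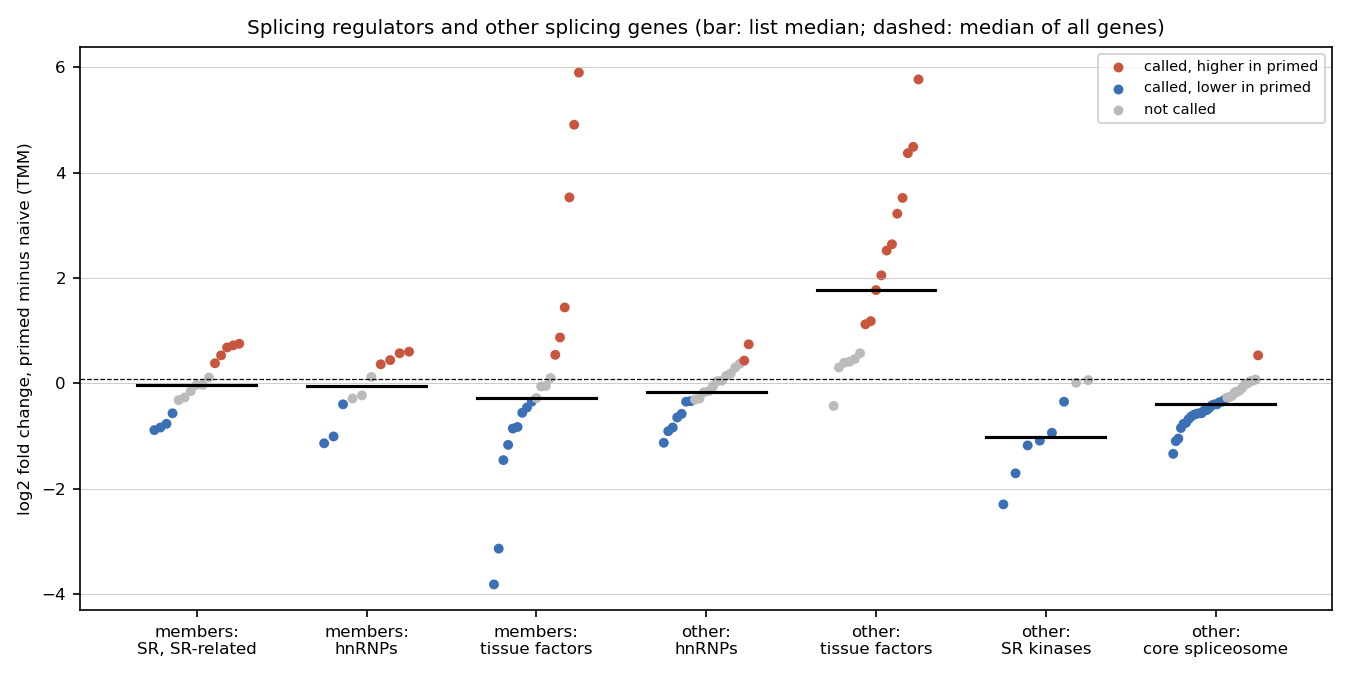
log2 fold change (TMM, primed minus naïve) of the members by class and of 4 further lists of splicing genes, with 1 point per gene, coloured by its call. Bars are list medians and the dashed line is the median of all genes, 0.08. The further tissue factors have a median of 1.77 and the SR kinases of -1.02.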

How the data were processed

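Nanopore cDNA reads of 2 naïve and 2 primed H1 hESC libraries were aligned to GRCh38 with minimap2 by the authors, who deposited raw counts per transcript from featureCounts 2.0.0 with Ensembl 105. Per the file headers, counting took whole transcript spans, ignored strand and counted overlapping and multiply aligned reads for each feature. The deposited tables hold 244825 transcripts, of which 242542 were matched to GENCODE 44 for names and lengths, and the 2283 others took 1.0% of counts. The gene value was the count of the transcript with the largest mean. Genes that reached 10 counts in 2 or more libraries entered the test by edgeR 4.0.16 (quasi-likelihood test, TMM, Benjamini-Hochberg adjustment), and isoforms with diffSpliceDGE. On simulated data 76% of genes with a log2 change of 1 and 100% with 2 were recovered among 27632. There only 100 genes of each size changed, equally in both directions and at a fixed dispersion, whereas 70.0% of genes were called here. The recovery in these libraries is therefore not given by those rates. Intervals and floors cover counting error only. Values per library were given for tissue factors called beyond a log2 fold change of 1 or near 0 counts in a state, for the 5 SR genes and 5 hnRNPs with the largest changes and the 1 with the smallest, and for PTBP, MBNL and ESRP paralogs; other members were added for completeness. The members and lists were chosen with earlier results of these data known.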

Additional observations from a re-analysis of the deposited data

How the results depend on the processing

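Under other processing choices the number of members called stayed near the 31 of the reported fit: 32 with library size (26 higher, 6 lower), 30 with RLE factors and with DESeq2 1.42.0, 28 with no count filter, 29 with at least 50 counts, with counts summed over transcripts and with the canonical transcript, and 22 to 29 with a library left out. It was 10 where a log2 fold change beyond 1 was also required. Of all genes, 70.0% were called in the reported fit, 72.5% with library size, 70.5% with RLE factors and 58.7% with DESeq2. That share was 42.2% with no count filter, 72.8% with at least 50 counts, 63.3% with summed counts and 70.3% with the canonical transcript. The members called also differed: with library size 10 lost their call and 11 others gained a call. The call of 1 isoform became 0 with fractions from counts without length, 0 with a dIF beyond 0.2, 20 with no dIF threshold, and 0 to 0 with a library left out. With library size the sign changed for 15 members, among them SRSF11 (0.61), SON (0.60), ESRP1 (0.58), PTBP1 (0.17) and RBFOX2 (0.08), a shift that the scaling itself makes in all genes. With at least 50 counts SRSF11 was at 0.07, SON at 0.07 and ESRP1 at 0.05. With a library left out SRSF11 ranged from -0.13 to 0.17, SON from -0.13 to 0.27 and ESRP1 from -0.13 to 0.12. With an isoform span outside the shared stretch, chosen after seeing the data, RBFOX2 was at 0.72 and SON at 0.40. Over the named genes 283 values kept direction and call and 15 changed sign. Among values that kept their direction, 8 lost and 1 gained a call. Among those that changed sign, SRSF11, SON and ESRP1 also gained a call with library size, where PTBP1 and RBFOX2 lost theirs. SON also gained a call over the shorter isoform span. The replicate block gave 32 members called and 1 isoform, and changed no call of a named gene. Same-numbered replicates deviated together with r = 0.14 over 3201 genes, which with 2 pairs does not show that the numbers pair the libraries. At these depths NOVA1, NOVA2, SRRM4 and RBM24 in naïve hESCs were too close to the limit of 3 counts for a level to be set.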

Other observations

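QKI, called lower by TMM, differed between its annotated 3′ ends. QKI-202, over chr6:163415170-163570747, had 710 and 1050 counts in naïve and 387 and 477 in primed hESCs, a log2 ratio of -1.33. The counts of QKI-203 outside that span were 669 and 782 in naïve and 694 and 669 in primed hESCs, a log2 ratio of -0.39. The part outside was 48.5% and 42.7% of the gene in naïve and 64.2% and 58.4% in primed hESCs, without overlap between the states. No isoform of QKI passed the test of isoform usage at an adjusted p under 0.05. The QKI spans compared here were not set in advance.

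HNRNPM and HNRNPA1 held stretches that went against the rest of the gene. Like those of QKI, these stretches were not set in advance. HNRNPM outside HNRNPM-216 had 885 and 1005 counts in naïve and 678 and 776 in primed hESCs, a log2 ratio of -0.69, beside 0.67 inside it. The opposite-strand gene ENSG00000279827 overlaps HNRNPM, with 346 and 509 counts in naïve and 598 and 603 in primed hESCs. HNRNPA1-239, over chr12:54283079-54283234, had 1124 and 1170 counts against 3238 and 2885, whereas HNRNPA1-271, at its 3′ end, had 1077 and 1011 against 570 and 582.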
